A study of Mus musculus with 48 samples.

Results

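Transcripts of 10 mouse genes of bile acid synthesis and sterol export were followed through the livers and fat depots of 48 RNA sequencing libraries. They are 4 cytochrome P450 enzymes that turn cholesterol into bile acids (Cyp7a1, Cyp8b1, Cyp27a1 and Cyp7b1), 3 transporters that move sterols out of cells (Abcg5, Abcg8 and Abca1), the receptor Nr0b2, and 2 bile acid transporters of the hepatocyte (Abcb11 and Slc10a1). The genes were taken by symbol, with earlier results of these data known, and all 10 were found among the 56748 Ensembl identifiers of each count table.

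The libraries came from male hepAGT-/- mice, in which the series title places a deletion of the angiotensinogen gene in hepatocytes (here KO), and from their hepAGT+/+ littermates (here WT). Every mouse ate a Western diet with 21% milk fat and 0.2% cholesterol over 12 weeks, so there is no group on ordinary chow. Housing was either at 20 to 22 °C (room temperature, RT) or at 30 °C (thermoneutrality, TN), where little energy goes into keeping warm. The liver, the brown fat (BAT) and the white fat beside the epididymis (eWAT) each gave 4 groups of 4 libraries, KO and WT at RT and at TN. The age of the mice, and the promoter and Cre line behind the deletion, are not given in the sources used here. Libraries are named by group and by the replicate number in their label.

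As background, the liver removes cholesterol mainly by making bile acids and by pumping sterol into bile. Cyp7a1 begins the classical pathway of bile acid synthesis, Cyp8b1 directs it toward cholic acid, and Cyp27a1 and Cyp7b1 form the alternative pathway that starts from side-chain oxidation. Bile acids returning to the liver activate the receptor FXR, which induces Nr0b2 (also called SHP), a repressor of Cyp7a1 and Cyp8b1, and Abcb11, the bile salt export pump. Sterol-activated LXR induces Abcg5, Abcg8 and Abca1.

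Total counts per library ran from 23.7 to 36.5 megacounts in liver, 25.3 to 39.4 in BAT and 28.7 to 43.7 in eWAT. Levels are counts per megacount of library total (CPM), with library sizes scaled by edgeR's TMM method. Called means an adjusted p under 0.05 in edgeR's quasi-likelihood test, with Benjamini-Hochberg adjustment across every gene of that tissue's fit, and changes are log2 ratios with their standard error (SE). The labels were checked on Agt, which lay between 125 and 207 CPM in the 8 KO livers and between 276 and 504 CPM in the 8 WT livers. Its transcript was thus lower in KO livers but not absent, with means of 167 CPM at RT and at TN beside 368 and 409.5 CPM in WT. The 6 hepatocyte markers summed to between 52640 and 91170 CPM in every liver. In bulk tissue, fewer cells of a type and less RNA per cell cannot be told apart.

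Read per kilobase of exon, which allows levels of different genes to be compared, Slc10a1 stood highest in liver with a mean of 238 CPM per kilobase over the 16 libraries, followed by Cyp27a1 with 214 and Abcg5 with 148. Cyp8b1 (101), Abcb11 (91.3) and Abcg8 (87.7) formed the middle of the order. Cyp7b1 (51.4), Nr0b2 (45.9), Cyp7a1 (34.6) and Abca1 (24.8) were lowest. Cyp7a1, the rate-limiting enzyme of the classical pathway, was therefore among the less abundant transcripts, and its libraries spread from 47.0 to 298 CPM.

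**Figure D1:**
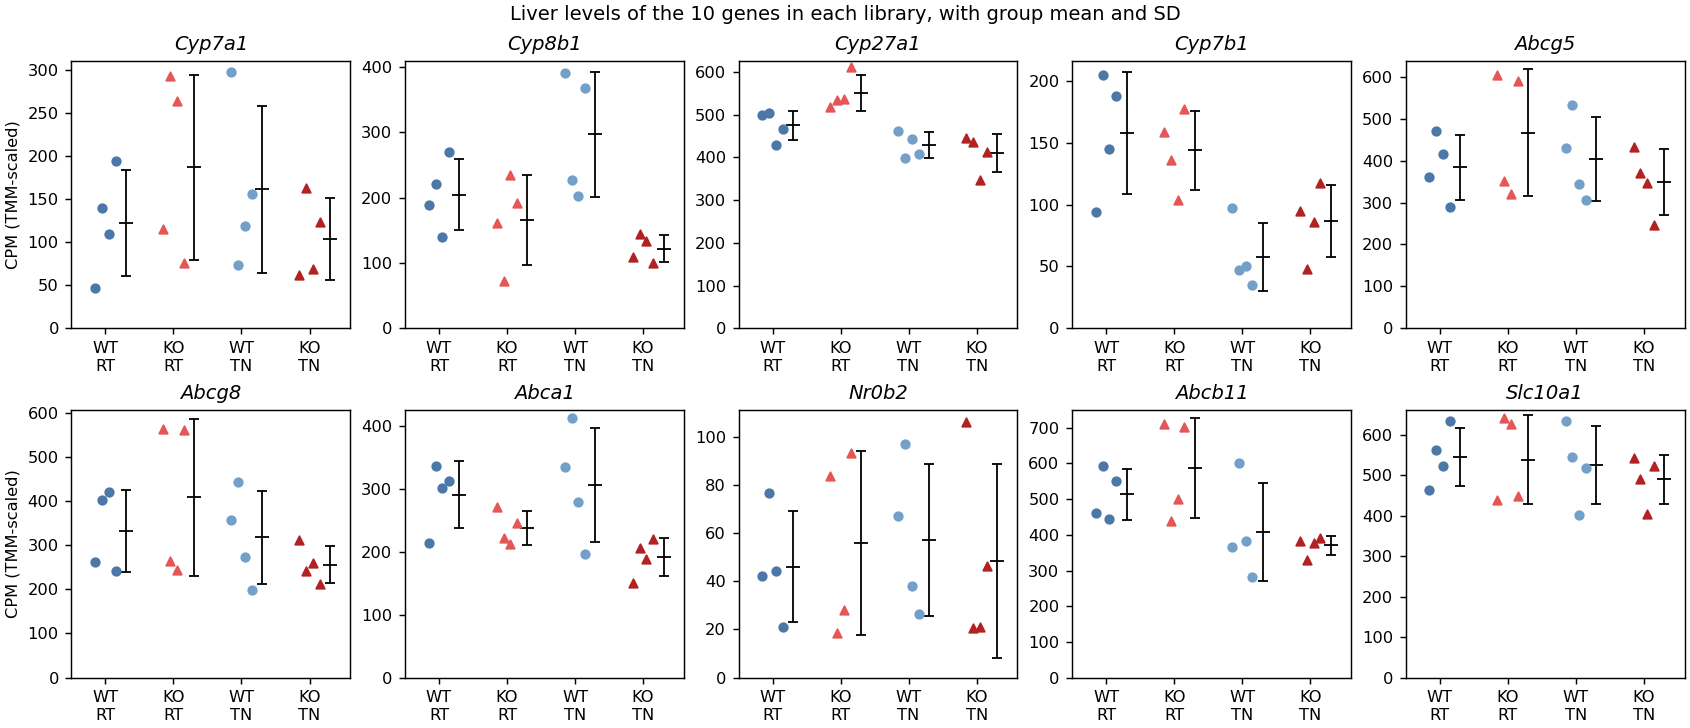
Level of each gene (CPM, TMM-scaled, axis from 0) in the 16 liver libraries by genotype and housing, with points for libraries (circles WT, triangles KO) and the group mean ± SD beside them. The 4 KO TN livers lie below the 4 WT TN livers for Cyp8b1, while Cyp7a1 and Nr0b2 vary widely inside every group.

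Genotype was compared first at each housing temperature. At TN, 2 of the 10 genes were lower in KO livers, the cholic acid enzyme Cyp8b1 and the cholesterol exporter Abca1, and the other 8 did not pass the test. Of all 17594 genes tested, 3.18% were called in that comparison, and 1.85% were called lower. At RT none of the 10 was called by edgeR or by DESeq2, none had an unadjusted p under 0.05, and the background was 0.0853%.

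Cyp8b1 (ENSMUSG00000050445, chr9:121914356-121916305, minus strand, GRCm38) is a gene with a single exon whose enzyme sets the share of cholic acid among the bile acids. Its start is shown because it is the member with the largest change between genotypes in liver. The stretch below is the 100 bases before the RefSeq start (chr9:121916306-121916405, GRCm38.p6, minus strand), with capitals on TATAAA.
Cyp8b1: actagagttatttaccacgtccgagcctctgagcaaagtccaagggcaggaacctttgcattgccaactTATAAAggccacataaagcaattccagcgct

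In WT TN livers Cyp8b1 stood at 391, 227, 202 and 368 CPM in replicates 1, 24, 6 and 7. In KO TN livers it stood at 109, 145, 133 and 101 CPM in replicates 2, 22, 4 and 5. Every KO library was below every WT library, and the KO values were the more tightly grouped. Means were 122 ± 20.6 CPM (SD, n = 4) in KO and 297 ± 96.0 CPM in WT, a log2 change of -1.28 (SE 0.32, edgeR adjusted p 0.0474). Groups that did not overlap, with KO lower, were seen in 6.22% of all genes in this comparison.

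At RT the level of Cyp8b1 was 189, 220.5, 139.6 and 269 CPM in WT replicates 11, 12, 15 and 18, and 161, 72.5, 235 and 193 CPM in KO replicates 10, 16, 19 and 9. The groups overlapped, and the log2 change was -0.31 (SE 0.32, edgeR adjusted p 0.824). The genotype effects at the 2 temperatures differed by -0.98 (SE 0.45), with an unadjusted p of 0.0481 and an edgeR adjusted p of 0.676, so a dependence on housing was not shown. Averaged over housing, the change was -0.79 (SE 0.23, edgeR adjusted p 0.059, DESeq2 adjusted p 0.00145).

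The Cyp8b1 call at TN sat close to the threshold. DESeq2 gave an adjusted p of 0.000379 and edgeR on only the 8 libraries compared gave 0.012. It was lost with relative log expression (RLE) scaling (0.0511), without a filter on low counts (0.0914), and without any single one of the 8 libraries, KO replicates 2, 22, 4 or 5 or WT replicates 1, 24, 6 or 7 (0.0546 to 0.118). The log2 change stayed between -1.43 and -1.13 in all of these.

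Abca1 (ENSMUSG00000015243, chr4:53030787-53159895, minus strand, GRCm38) encodes the exporter that loads cholesterol onto apolipoprotein A-I and is made by most cell types, macrophages included. The 100 bases before its RefSeq start (chr4:53159896-53159995, GRCm38.p6, minus strand) are shown for comparison with Cyp8b1, again with TATAAA in capitals.
Abca1: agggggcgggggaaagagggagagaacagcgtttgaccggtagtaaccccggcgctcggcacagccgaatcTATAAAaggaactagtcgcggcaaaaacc
TATAAA ends 26 bases before the start of Cyp8b1 and 24 bases before that of Abca1. Searched on both strands, TATAAA was in 13.6% of the 32851 RefSeq promoter windows of 300 bases (250 before to 50 after a start). Of the 8 members with a window, 6 held it on 1 strand or the other: Cyp8b1, Abca1, Nr0b2, Slc10a1, Abcg5 and Abcg8. The matches of Abcg5 and Abcg8 are 1 site, inside the 209 bases that their windows share. In Slc10a1 the match is on the reverse strand, from position -128 to -123. The 8 members have 10 windows, so their count and the share per window are not on the same footing. A match is a description of the letters only.

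In WT TN livers Abca1 stood at 336, 413, 279.9 and 197 CPM in replicates 1, 24, 6 and 7. In KO TN livers it stood at 150.4, 206, 189 and 221 CPM in replicates 2, 22, 4 and 5. The groups overlapped through WT replicate 7, the lowest WT library, which lay among the KO values. Means were 191 ± 30.3 CPM (SD, n = 4) in KO and 306 ± 91.1 CPM in WT, a log2 change of -0.68 (SE 0.18, edgeR adjusted p 0.0458).

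At RT Abca1 stood at 215, 337, 301 and 313 CPM in WT replicates 11, 12, 15 and 18 and at 272, 222, 213 and 246.5 CPM in KO replicates 10, 16, 19 and 9. At RT, 3 of the 4 WT libraries lay above all KO libraries, and replicate 11 lay among them. The log2 change there was -0.29 (SE 0.18, edgeR adjusted p 0.634). Over both temperatures, Abca1 was the 1 gene of the 10 that edgeR called, with a change of -0.48 (SE 0.13, edgeR adjusted p 0.0326), against 5.19% of all genes. DESeq2 called 2, Abca1 (adjusted p 0.00829) and Cyp8b1, beside 1433 of all 17594 genes. The interaction with housing was -0.39 (SE 0.26, edgeR adjusted p 0.8).

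The Abca1 call at TN was also close to the threshold. It was lost with RLE scaling (adjusted p 0.0501), on only the 8 libraries compared (0.0654), and without KO TN replicates 2, 22 or 4 or WT TN replicates 1, 24 or 6 (0.0733 to 0.124). It was kept by DESeq2 (0.0133), without a filter (0.0342), without KO replicate 5 (0.0464) and without WT replicate 7 (0.0173). The averaged call was lost in 9 of its 16 single-library omissions (adjusted p 0.0549 to 0.0756), those of KO RT replicates 16 and 19, WT RT replicates 12, 15 and 18, KO TN replicates 2 and 4, and WT TN replicates 1 and 24.

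Markers of liver cell types were read in the same comparison. The summed level of 6 macrophage markers was 248, 272, 503 and 582 CPM in KO TN replicates 2, 22, 4 and 5. In WT TN livers it was 162 to 240.4 CPM. Of the 6, edgeR called 1 higher in KO, Lyz2 (log2 change 1.21, SE 0.24, edgeR adjusted p 0.0117, background 3.18%). DESeq2 called 2 higher, Clec4f and Lyz2 (background 6.31%). The hepatocyte marker sum overlapped, at 73210 to 91170 CPM in KO and 67710 to 89360 CPM in WT, with 0 of 6 called by edgeR and 0 at an unadjusted p under 0.05. The cholangiocyte sum overlapped too, at 39.8 to 136.9 CPM in KO and 36.9 to 113.9 CPM in WT. The part of these markers in the levels of Cyp8b1 and Abca1 was not tested.

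Cyp7a1 (ENSMUSG00000028240, chr4:6265612-6275633, minus strand), the first and rate-limiting enzyme of the classical pathway, was not called in any liver comparison. Its WT livers held 47.0, 140.1, 110.2 and 195 CPM at RT (replicates 11, 12, 15 and 18) and 298, 73.6, 119 and 157 CPM at TN (replicates 1, 24, 6 and 7). Its KO livers held 115, 294, 265 and 76.2 CPM at RT (replicates 10, 16, 19 and 9) and 62.0, 163, 69.7 and 123 CPM at TN (replicates 2, 22, 4 and 5). All 4 groups overlapped. The genotype change was 0.61 (SE 0.57) at RT and -0.63 (SE 0.57) at TN with edgeR adjusted p of 0.798 and 0.645.

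Cyp27a1 (ENSMUSG00000026170, chr1:74713574-74737892, plus strand), which oxidises the sterol side chain in mitochondria, had the smallest SE of the 4 enzymes in each comparison, with all livers between 346 and 612 CPM. At RT its KO livers held 517, 533, 537 and 612 CPM and its WT livers 499, 503, 429.9 and 467 CPM. The KO libraries lay above the WT libraries without overlap, as in 3.0% of all genes with KO higher, yet the log2 change of 0.21 (SE 0.12) was not called (edgeR adjusted p 0.562). At TN the groups overlapped and the change was -0.06 (SE 0.12, edgeR adjusted p 0.855).

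Cyp7b1 (ENSMUSG00000039519, chr3:18071950-18243338, minus strand) acts after Cyp27a1 in the alternative pathway. Its genotype change was -0.13 (SE 0.34) at RT and 0.59 (SE 0.34) at TN, with edgeR adjusted p of 0.942 and 0.412. Its values separated by housing more than by genotype, and are given with that comparison.

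**Figure D2:**
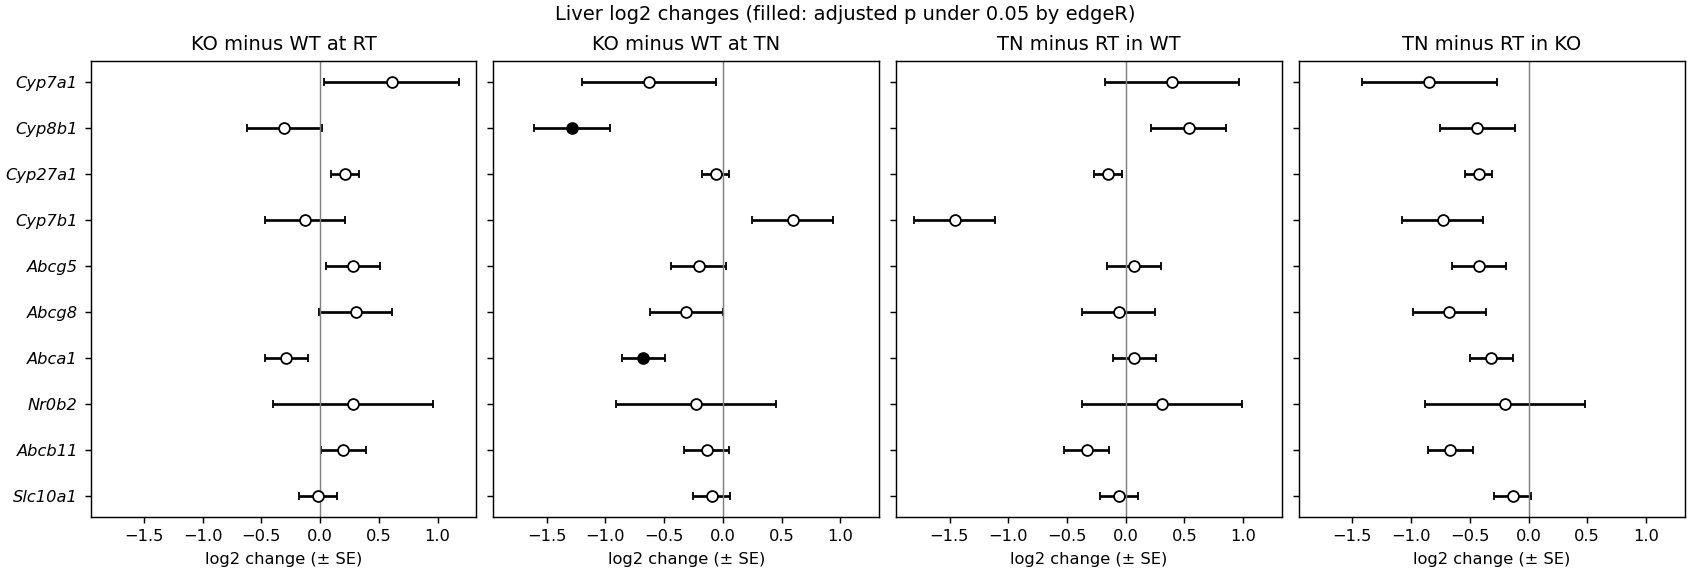
Log2 changes of the 10 genes in liver (horizontal axis, ± SE) for KO minus WT at RT and TN and for TN minus RT in WT and KO, filled where the edgeR adjusted p was under 0.05. Only Cyp8b1 and Abca1 at TN are filled, and in KO all 10 points for TN minus RT lie to the left of 0.

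Housing was compared within each genotype. In WT livers the gene that differed most between temperatures was Cyp7b1, and in KO livers all 10 genes had a lower mean at TN, but edgeR called none of the 10 in either genotype. The background called was 0.0227% of genes in WT and 0.114% in KO. In WT, 1 of the 10 had an unadjusted p under 0.05 (background 7.25%) and DESeq2 called 1 (Cyp7b1, background 0.426%). In KO, 3 had an unadjusted p under 0.05 (background 10.5%) and DESeq2 called 2 (Cyp27a1 and Abcb11, background 2.06%).

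Cyp7b1 stood at 93.7, 204, 145 and 187 CPM in WT RT replicates 11, 12, 15 and 18. It stood at 97.2, 46.8, 50.6 and 35.0 CPM in WT TN replicates 1, 24, 6 and 7. The lowest RT library and the highest TN library crossed by a few CPM, and the other 3 of each group were far apart. The log2 change was -1.46 (SE 0.35, unadjusted p 0.000969, edgeR adjusted p 0.248, DESeq2 adjusted p 0.016).

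In KO livers Cyp7b1 stood at 158, 136, 103 and 177 CPM at RT (replicates 10, 16, 19 and 9) and at 94.8, 47.8, 86.2 and 117 CPM at TN (replicates 2, 22, 4 and 5). The groups overlapped through RT replicate 19 and TN replicate 5, and the change was -0.73 (SE 0.34, edgeR adjusted p 0.477). Over both genotypes the change was -1.09 (SE 0.24), with an edgeR adjusted p of 0.0816 and a DESeq2 adjusted p of 0.00365. Without WT TN replicate 1 edgeR called it (adjusted p 0.0196). In that averaged comparison edgeR called 0 of the 10 genes against a background of 0.279%, 3 had an unadjusted p under 0.05 (background 11.0%), and DESeq2 called 3, Cyp7b1, Cyp27a1 and Abcb11 (background 1.87%).

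In KO livers the 10 log2 changes from RT to TN ran from -0.84 for Cyp7a1 to -0.14 for Slc10a1, with a median of -0.43 beside 0.01 over all genes. In WT livers 5 were above 0 and 5 below, with a median of 0.01. The difference between these 2 housing effects was below 0 for 9 of the 10 genes, Cyp7b1 being the exception at 0.72 (SE 0.48), and edgeR called none (background 0.0%, 0 by DESeq2, and 1 at an unadjusted p under 0.05 beside 7.33% of all genes). Genes of 1 liver share its RNA and are not independent of each other, so these counts describe the libraries. The macrophage marker sum was 137 to 261 CPM in KO RT livers and 248 to 582 CPM in KO TN livers. Of its 6 genes, 5 had an unadjusted p under 0.05 (background 10.5%). None was called by edgeR, and DESeq2 called 2 higher at TN, Clec4f and Lyz2 (background 2.06%). The part of these markers in the lower means was not tested.

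Abcb11 (ENSMUSG00000027048, chr2:69238282-69342616, minus strand), the pump that exports bile salts across the canalicular membrane, held 710.3, 438, 499 and 702 CPM in KO RT replicates 10, 16, 19 and 9. It held 383, 331, 378 and 389.8 CPM in KO TN replicates 2, 22, 4 and 5. All TN values lay below all RT values, and RT replicates 10 and 9 stood well above the other libraries. The log2 change was -0.67 (SE 0.19, unadjusted p 0.0022, edgeR adjusted p 0.145, DESeq2 adjusted p 0.0422).

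In WT livers Abcb11 ranged from 445 to 594 CPM at RT and from 281 to 602 CPM at TN, a change of -0.33 (SE 0.19, edgeR adjusted p 0.779). Without WT TN replicate 24, the highest of its group, the housing effect averaged over genotypes was -0.62 and was called (edgeR adjusted p 0.0162), against -0.50 and 0.116 with it. Cyp27a1 in KO livers lay between 517 and 612 CPM at RT and between 346 and 445 CPM at TN, without overlap, and its log2 change of -0.42 (SE 0.12) had an edgeR adjusted p of 0.131 and a DESeq2 adjusted p of 0.0175. Groups with TN wholly below RT were seen in 2.9% of all genes in KO, and in 2 of these 10.

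Slc10a1 (ENSMUSG00000021135, chr12:80953183-80968705, minus strand) takes bile salts up from portal blood. Its livers ranged from 401 to 641 CPM, and its log2 changes between genotypes or temperatures ran from -0.14 to -0.02 with SE of 0.16. All 4 groups overlapped, and every edgeR adjusted p in these 4 comparisons was at least 0.827.

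Abcg5 (ENSMUSG00000040505, chr17:84658234-84683011, minus strand) and Abcg8 (ENSMUSG00000024254, chr17:84676302-84700333, plus strand) encode the 2 subunits of 1 transporter that secretes sterols into bile and gut, and lie on opposite strands. RefSeq gives 2 starts for Abcg8. One is 109 bases from the Abcg5 start, and the stretch between them precedes Abcg5 and this Abcg8 start. The other, at position 84676302, lies inside Abcg5 and is where the annotated Abcg8 gene begins. The shared stretch is shown because the pair varied together across livers. It runs over chr17:84683012-84683120 (GRCm38.p6, plus strand), from the base beside the Abcg5 start to the base beside that Abcg8 start. Capitals mark the GATA core AGATAA (here as its reverse complement TTATCT) and the TATA box TATAAA (here as TTTATA).
Abcg5-Abcg8: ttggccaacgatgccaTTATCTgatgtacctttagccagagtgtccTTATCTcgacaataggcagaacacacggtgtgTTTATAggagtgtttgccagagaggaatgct
The stretch holds 2 GATA cores and 1 TATAAA, all reading along the strand of Abcg5. A GATA core on either strand is in 11.2% of all RefSeq windows.

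Abcg5 stood at 360, 471, 416.5 and 289.6 CPM in WT RT livers (replicates 11, 12, 15 and 18) and at 605, 350.2, 321 and 590 CPM in KO RT livers (replicates 10, 16, 19 and 9). Abcg8 stood at 262, 402, 422 and 241 CPM and at 564, 264, 245 and 562 CPM in the same libraries. In KO RT, replicates 10 and 9 were the 2 highest of all 16 livers for both genes, while replicates 16 and 19 lay within the WT RT range.

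At TN, Abcg5 ranged from 307 to 531 CPM in WT and from 246 to 432 CPM in KO, and Abcg8 from 198 to 443 CPM and from 212 to 311 CPM. Groups overlapped in every comparison. Genotype changes were 0.28 (SE 0.23) and 0.30 (SE 0.31) at RT and -0.21 (SE 0.23) and -0.31 (SE 0.31) at TN for Abcg5 and Abcg8, none called by edgeR (adjusted p from 0.688 to 0.822).

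Over the 16 livers the levels of Abcg5 and Abcg8, as log2(CPM + 1), correlated with a Pearson r of 0.94 and a Spearman rho of 0.91. The permutation p was 1e-05 for both, the smallest that 100000 resamples give, and 4e-05 after Benjamini-Hochberg adjustment over the 4 pairs examined. Without KO RT replicates 10 and 9, the 2 libraries farthest from the median of Abcg5, r was 0.89, and as deviations from the 4 group means it was 0.94. Among the 9427 liver genes whose mean reached 5 CPM, Abcg8 was the most like Abcg5, followed by Adam11 (r = 0.89) and Galt (r = 0.85). The 2 genes overlap on opposite strands in the annotation. The libraries' counting is not stated to use strand, so how reads from the overlap were counted is not known, and its part in r was not tested.

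Nr0b2 (ENSMUSG00000037583, chr4:133553376-133556536, plus strand), the repressor that FXR induces, had the largest SE of the 10 in each of these comparisons. It stood at 42.1, 76.8, 44.4 and 21.1 CPM in WT RT (replicates 11, 12, 15 and 18) and at 67.1, 97.0, 37.9 and 26.4 CPM in WT TN (replicates 1, 24, 6 and 7). It stood at 83.9, 18.4, 28.1 and 93.3 CPM in KO RT (replicates 10, 16, 19 and 9) and at 106, 20.6, 21.0 and 46.4 CPM in KO TN (replicates 2, 22, 4 and 5). Every group held both high and low libraries, and log2 changes between -0.23 and 0.31 had SE of 0.68.

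The KO RT livers divided the same way across several genes. Replicates 10 and 9 had the higher Nr0b2, Abcg5, Abcg8, Abcb11, Abca1 and Cyp7b1 and the lower Cyp7a1 and Slc10a1, and replicates 16 and 19 the reverse. Cyp8b1 and Cyp27a1 did not divide this way. The split was read from the values, and the share of all genes that divide so was not counted. For Slc10a1 the values were 439 and 448 CPM against 641 and 625 CPM. The labels give nothing that separates these 4 mice, and what lies behind the division was not tested.

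Since Nr0b2 represses Cyp7a1 and Cyp8b1, those pairs were compared over the 16 livers. Cyp7a1 and Nr0b2 had a Pearson r of -0.43 (permutation p 0.0922, adjusted 0.184) and a Spearman rho of -0.47 (permutation p 0.0687, adjusted 0.137), which did not pass the threshold. As deviations from group means r was -0.53 (permutation p 0.0353, not adjusted). That permutation made no allowance for the 4 fitted group means, so its p is too small and is not read against the threshold. Without the 2 libraries farthest from the median of Cyp7a1, WT RT replicate 11 and WT TN replicate 1, r of the levels was -0.66. Cyp8b1 and Nr0b2 showed no relation past the threshold (r = 0.12, permutation p 0.664, rho = 0.09, permutation p 0.748), with r = -0.22 without KO RT replicate 16 and WT TN replicate 1. Cyp7a1 and Cyp8b1 had r = 0.20 (permutation p 0.452) and rho = 0.36 (permutation p 0.172), with r = 0.06 without WT RT replicate 11 and WT TN replicate 1.

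**Figure D3:**
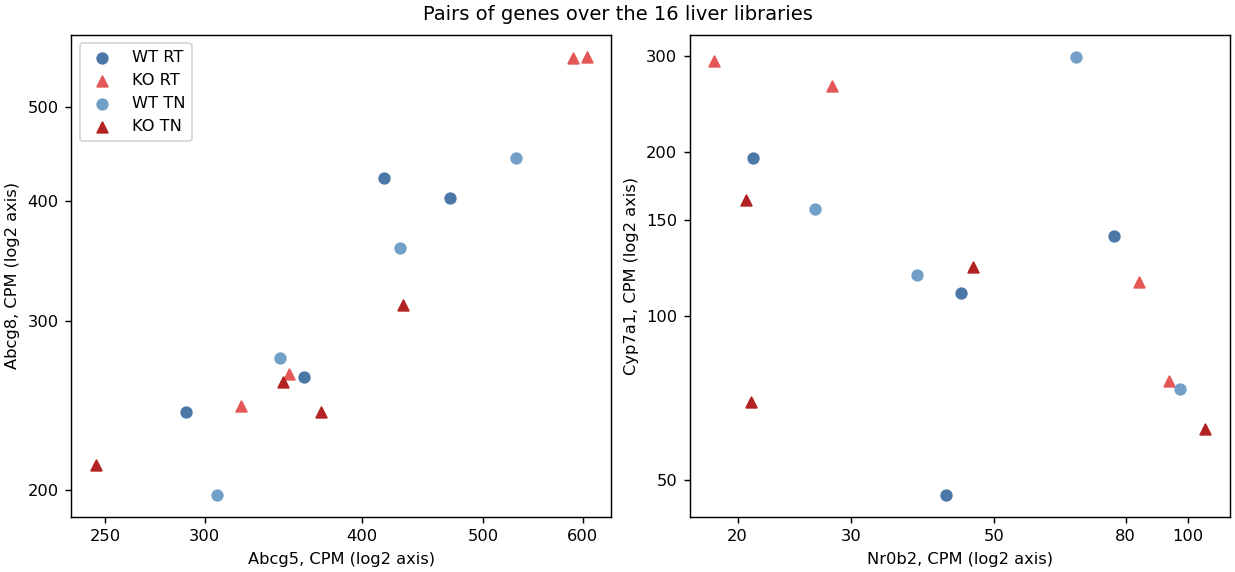
Levels of Abcg5 against Abcg8 and of Nr0b2 against Cyp7a1 (CPM, log2 axes) in the 16 liver libraries, 1 point per library, coloured by group. The first pair falls along a line (r = 0.94), with KO RT replicates 10 and 9 at its upper end, and the second is scattered (r = -0.43).

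As a description with no test, the genes most like Cyp7a1 over the 16 livers were Zfp961 (r = 0.86), Akr1d1 (r = 0.80), a reductase that acts later in bile acid synthesis, and Pias2 (r = 0.77). Those most like Cyp8b1 were Aff1 (r = 0.83), Igsf11 (r = 0.83) and Abat (r = 0.81), and those most like Nr0b2 were Bag6 (r = 0.91), Bcar3 (r = 0.86) and Vasn (r = 0.84). Among the other members, Nr0b2 was most like Abcg8 (r = 0.75) and Abcg5 (r = 0.73), and Cyp7a1 was most like Slc10a1 (r = 0.67). All share the same 16 livers and their groups.

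Other genes of the pathway were read from 4 lists. Of 14 tested further enzymes of bile acid synthesis and conjugation, edgeR called 1 higher and 1 lower in KO at TN, where 3.18% of all genes were called, and DESeq2 called 2 higher and 3 lower (background 6.31%), with a median log2 change of -0.31 over the list beside 0.05 over all genes. Hsd17b4, the peroxisomal enzyme of side-chain shortening, ranged from 324 to 380 CPM in KO and from 450.5 to 686 CPM in WT (log2 change -0.78, SE 0.13, edgeR adjusted p 0.00321). Akr1c6 ranged from 1515 to 1802 CPM in KO and from 978 to 1341 CPM in WT (0.53, SE 0.12, edgeR adjusted p 0.0226). Neither overlapped. Averaged over housing, Scp2, a peroxisomal thiolase and sterol carrier, fell too, from a mean of 4369 ± 376 CPM in WT to 3318 ± 217 CPM in KO (SD, n = 8, log2 change -0.40, edgeR adjusted p 0.00796).

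Of 13 other bile acid and phospholipid transporters, edgeR called 3 at TN, all lower in KO, beside 1.85% of all genes called lower. Abcc3, which returns bile acids to the blood, ranged from 212 to 242 CPM in KO and from 372 to 543 CPM in WT (log2 change -0.94, SE 0.18, edgeR adjusted p 0.00626). Abcg2, a canalicular exporter of many organic anions, changed by -0.72 (SE 0.14, edgeR adjusted p 0.00997), and Abcb4, which flips phosphatidylcholine into bile, by -0.62 (SE 0.16, edgeR adjusted p 0.0391). The groups did not overlap for any of the 3, as in 6.22% of all genes with KO lower.

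Of 12 other LXR targets and sterol efflux genes, 1 was called at TN (background 3.18%), the desaturase Scd1, which fell from 44360 ± 6281 CPM in WT to 21590 ± 6169 CPM in KO (SD, n = 4, log2 change -1.04, SE 0.21, edgeR adjusted p 0.0102). Scd1 answers to insulin and SREBP-1c as well as to LXR. Of 13 tested regulators, among them the FXR and LXR genes Nr1h4 and Nr1h3, edgeR called 0 between genotypes at TN, where 2 regulators had an unadjusted p under 0.05 (background 17.6%) and DESeq2 called 1, Hnf4a (background 6.31%). Between genotypes at RT edgeR called 0 genes of the 4 lists, with 5, 1, 4 and 2 genes at an unadjusted p under 0.05 in enzymes, regulators, transporters and LXR targets, beside 10.2% of all genes. DESeq2 called 3, 0, 1 and 0 of them, beside 1.15% of all genes. Between temperatures edgeR also called 0 genes of the 4 lists, with 3, 3, 2 and 2 at an unadjusted p under 0.05 in WT (background 7.25%) and 1, 4, 1 and 4 in KO (background 10.5%). DESeq2 called 1 transporter in WT (Slco1a4, background 0.426%) and 1 LXR target in KO (Abcg1, background 2.06%).

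In fat, the 10 genes fell into 2 kinds. Cyp27a1 and Abca1 were expressed in both depots, while the other 8 were low, and their median followed the hepatocyte markers from library to library. In the fit over all 48 libraries, edgeR called all 10 genes higher in liver than in BAT, where 31.6% of all genes were called higher, and 9 of 10 higher in liver than in eWAT, where 35.5% were. The exception was Abca1, whose liver level differed from that in eWAT by 0.08 on the log2 scale (SE 0.09, edgeR adjusted p 0.425).

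As percentages of the mean liver level in unscaled CPM, the median of the 8 genes was 0 to 2.1% in BAT libraries and 0.0149% to 7.59% in eWAT libraries. Single genes of the 8 reached 3.46% in BAT (Slc10a1) and 16.6% in eWAT (Cyp7a1). The 6 hepatocyte markers summed to 0.0088% to 3.27% and 0.0336% to 5.89% of their liver sum in the same libraries. The highest library was eWAT KO RT replicate 16, with a median of 7.59% for the 8 genes and 5.89% for the markers. It was followed in eWAT by WT RT replicate 18 (2.92% and 2.02%) and KO RT replicate 19 (2.25% and 2.55%), and the highest in BAT was KO TN replicate 2 (2.1% and 3.27%). Where the markers were lowest the median of the 8 genes was lowest too, at 0% beside 0.0088% in BAT KO RT replicate 19 and at 0.0149% beside 0.0336% in eWAT WT TN replicate 7. Single genes did not all follow. Cyp7b1 was at 1.2% of its liver level in that eWAT library and at 0.645% in BAT WT RT replicate 18, where the markers were at 0.0175%. Cyp7a1 was at 0 in BAT KO TN replicate 5 and eWAT KO RT replicate 10, with markers at 1.83% and 1.31%. A library with 0 counts allows up to 3 counts, 0.0762 to 0.119 CPM in BAT and 0.0687 to 0.105 CPM in eWAT, for counting error only. Some fat libraries held markers of other tissues too. In eWAT WT RT replicate 18, 5 epididymis markers summed to 878.8 CPM, beside at most 11.92 CPM in the other eWAT libraries. Across BAT libraries, 5 skeletal muscle markers summed to between 1.186 CPM (WT RT replicate 18) and 5923 CPM (KO TN replicate 2). The part of these tissues in the levels was not tested.

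**Figure D4:**
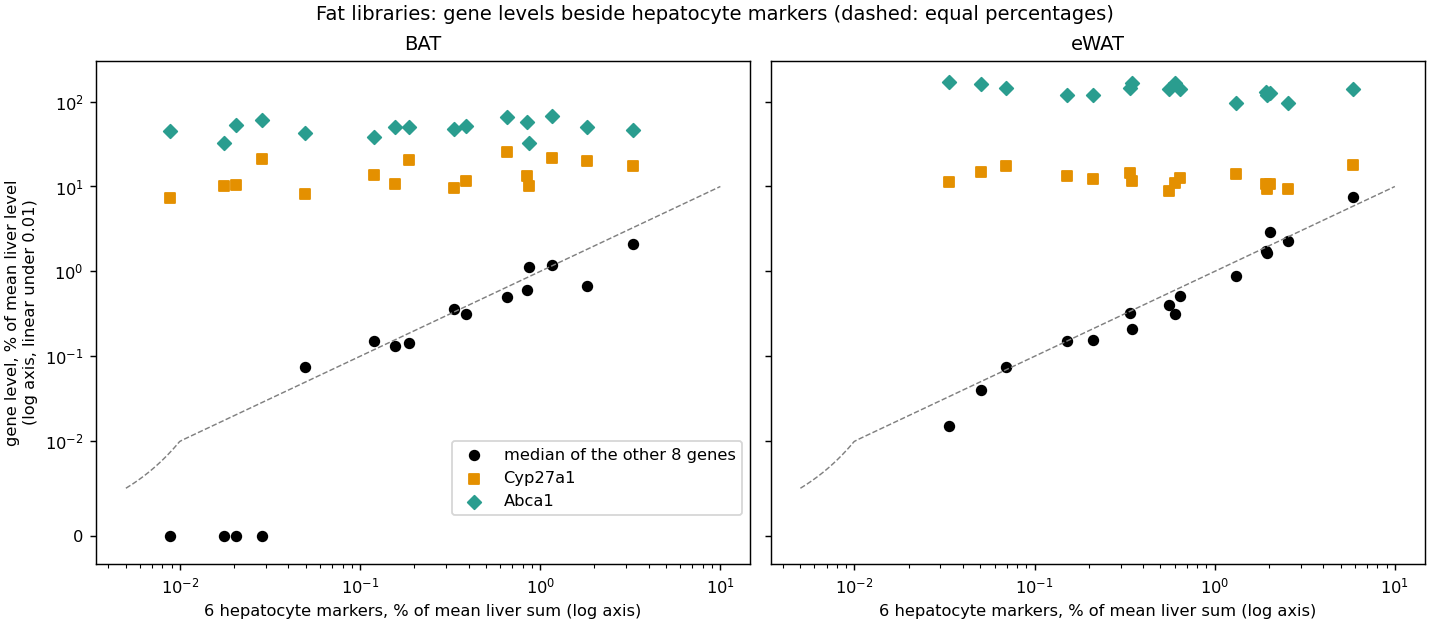
For each BAT and eWAT library, the level of Cyp27a1, of Abca1 and the median of the other 8 genes (vertical, percent of the mean liver level, log axis that is linear under 0.01) against the sum of 6 hepatocyte markers (horizontal, percent of the mean liver sum, log axis). The median of the 8 genes rises with the markers near the dashed line of equal percentages, up to 7.59% at 5.89%, while Cyp27a1 and Abca1 lie above the line in every library.

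None of the 8 was called between genotypes or temperatures in either depot by edgeR. In eWAT of KO mice their log2 changes from RT to TN ran from -4.41 for Cyp7a1 to -2.25 for Abcg5, beside -2.94 for the median of the hepatocyte markers, and 3 of the 8 (4 of the 10, with Abca1) had an unadjusted p under 0.05, beside 17.5% of all genes. Most of these values lean on RT replicate 16, the library with the highest hepatocyte markers. Cyp7a1 stood at 0, 21.9, 3.25 and 0 CPM in RT replicates 10, 16, 19 and 9. Without replicate 16 its change was -1.89 (SE 1.92), the 8 changes ran from -2.84 for Abcb11 to -1.04 for Abcg5 beside -2.20 for the markers, and 0 of the 8 had an unadjusted p under 0.05, beside 18.8% of all genes. With all libraries DESeq2 called 1, Cyp7b1 (-2.33, adjusted p 0.04, background 6.1%). Nr0b2 was below the filter on low counts in BAT, which left 9 of the 10 genes tested there. The part of hepatocyte RNA in these values was not tested.

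Cyp27a1, which macrophages also make, was 7.41% to 25.5% of its liver level in BAT and 8.9% to 17.8% in eWAT. In BAT of KO mice it rose with warmth, the 1 gene of the 10 that edgeR called in fat, where 15.2% of all genes were called in that comparison and 6.64% were called higher. It stood at 50.3, 50.1, 38.5 and 55.2 CPM at RT (replicates 10, 14, 19 and 9) and at 68.2, 83.7, 79.8 and 80.6 CPM at TN (replicates 2, 3, 4 and 5). The groups did not overlap, as for 9.54% of all genes with TN higher. The means of 48.5 ± 7.07 and 78.1 ± 6.78 CPM (SD, n = 4) gave a log2 change of 0.69 (SE 0.16, edgeR adjusted p 0.0066), and the call held in every alternative tried (adjusted p 0.000372 to 0.03).

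In BAT of WT mice Cyp27a1 stood at 51.3, 71.2, 50.8 and 62.6 CPM at RT (replicates 12, 15, 17 and 18) and at 59.8, 89.6, 76.0 and 59.7 CPM at TN (replicates 24, 6, 7 and 1). These groups overlapped, with a change of 0.27 (SE 0.16, edgeR adjusted p 0.197), and 0 of the 9 tested genes were called in WT BAT by edgeR or DESeq2 (0 at an unadjusted p under 0.05). Of all genes in that comparison edgeR called 32.5%, and 42.7% had an unadjusted p under 0.05. Whether the housing effect differed between genotypes in BAT was not tested. Of 5 macrophage markers tested in BAT, 4 rose with warmth in each genotype, and the sum of the 6 went from 40.6 to 48.3 CPM at RT to 139 to 197 CPM at TN in KO, and from 33.7 to 88.7 CPM to 159 to 386 CPM in WT. The part of macrophages in the level of Cyp27a1 was not tested.

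In eWAT Cyp27a1 at TN stood at 61.0, 53.5, 57.7 and 80.3 CPM in KO (replicates 21, 3, 4 and 5) and at 42.5, 50.6, 52.6 and 43.1 CPM in WT (replicates 23, 6, 7 and 8). The KO libraries lay above the WT libraries, without overlap, as in 4.57% of all genes with KO higher. The log2 change of 0.42 (SE 0.16, unadjusted p 0.0148, edgeR adjusted p 0.228) was not called. The macrophage marker sum went the other way in these libraries, at 692 to 842 CPM in KO and 932 to 1594 CPM in WT, without overlap. Of its 6 genes edgeR called 0, 4 had an unadjusted p under 0.05 and DESeq2 called 3 lower in KO (background 3.57%), and their part in the level of Cyp27a1 was not tested. No member was called between genotypes in eWAT or BAT by edgeR or DESeq2, and Cyp27a1 in eWAT at TN was the 1 member at an unadjusted p under 0.05 (background 13.7%). Over all genes edgeR called 0.586% in eWAT at TN, 4.34% in eWAT at RT, 0.0887% in BAT at RT and 0.0% in BAT at TN.

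In unscaled CPM, Abca1 was 96.1% to 169% of its mean liver level in eWAT libraries (median 139%) and 32.1% to 66.9% in BAT. Whether liver or eWAT stood higher depended on the scaling and the filter: with TMM scaling over the 48 libraries liver was the higher by 0.08 on the log2 scale, as above, and with no filter on low counts the difference was -0.015. In eWAT it stood at 260.8, 334, 260.2 and 307 CPM in KO RT (replicates 10, 16, 19 and 9) and at 329.9, 423, 353 and 369.9 CPM in KO TN (replicates 21, 3, 4 and 5). The groups met at RT replicate 16 and TN replicate 21, and the change of 0.34 (SE 0.14, unadjusted p 0.02, edgeR adjusted p 0.184) was not called, with 1.74% of all genes called. The macrophage marker sum was 432 to 638 CPM in KO RT and 692 to 842 CPM in KO TN, without overlap. Of its 6 genes edgeR called 1 higher at TN, Csf1r, and DESeq2 called Csf1r and Cd68 (background 6.1%), and their part in the level of Abca1 was not tested. In WT eWAT the change was 0.14 (SE 0.14, edgeR adjusted p 0.963, background 0.0%). The genotype change of Abca1 seen in TN liver, -0.68, stood beside -0.05 (SE 0.13) in TN eWAT and -0.12 (SE 0.17) in TN BAT, neither called (edgeR adjusted p 0.917 and 0.999), and the difference between tissues was not tested.

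**Figure D5:**
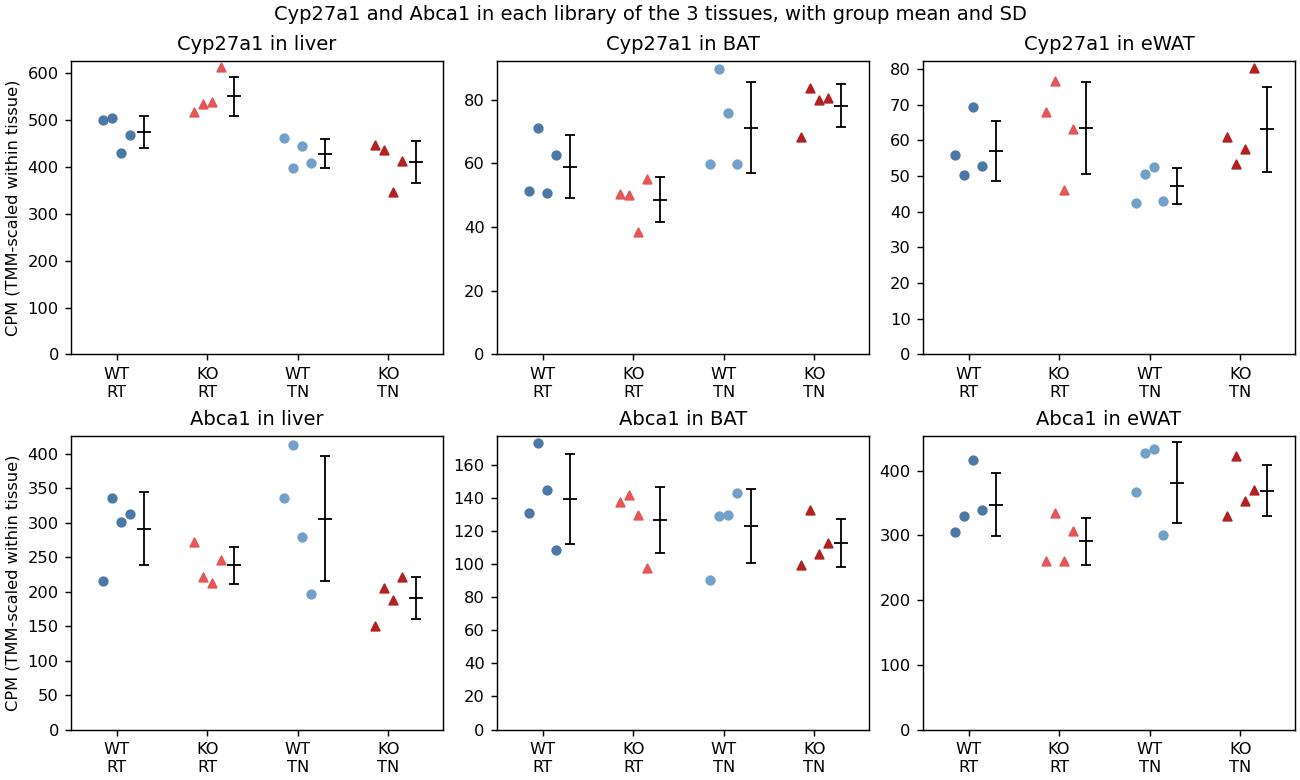
Cyp27a1 and Abca1 in each library of liver, BAT and eWAT by group (CPM, TMM-scaled within a tissue, axes from 0), with the group mean ± SD. Cyp27a1 in BAT of KO mice is at 38.5 to 55.2 CPM at RT and 68.2 to 83.7 CPM at TN, and Abca1 is at 260.2 to 433 CPM in eWAT.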

How the data were processed

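Per the labels' protocols, frozen tissue gave total RNA, NEBNext Ultra libraries and paired reads from a NovaSeq instrument. The authors deposited raw counts per gene, 1 table per library. The submitters' processing notes name fastp, STAR 2.6.1d, featureCounts 1.5.0-p3 and the GRCm38 (mm10) build. The annotation release and strand setting are not given in the sources used here, and 52073 of the 56748 identifiers (91.8%) matched a symbol. Gene positions and exon lengths come from GENCODE M21 on GRCm38, and sequences from RefSeq (GRCm38.p6), which held windows for 8 of the 10 genes.

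The 16 libraries of a tissue were fitted together with edgeR 4.0.16 under R 4.3.3, with TMM scaling, 1 mean per group and robust quasi-likelihood tests. Genes under filterByExpr's limit, set to a minimum count of 10, were left out. Liver had 17594 genes tested, BAT 18032 and eWAT 18933, and a fit over all 48 libraries compared tissues over 21910 genes. P-values are two-sided. The numbers in the labels are called biological replicates, and whether 1 number marks 1 mouse across tissues is not stated. The edgeR and DESeq2 p-values set a difference against the spread between these libraries, and the p-values of correlations come from permutation. Marker sums use unscaled CPM. Correlations used 100000 resamples.

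Alternatives were RLE scaling, no filter, DESeq2 1.42.0, only the 8 libraries compared, and leaving out each library. The members, lists and tests were chosen with earlier results of these data known. Named genes are the 10 members, Agt, up to 4 genes per list among those called in a liver comparison, and the 3 genes most like Cyp7a1, Cyp8b1, Nr0b2 and Abcg5. The procedure was tested on simulated data. Counts set the precision, and SDs over 4 libraries include it.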

Additional observations from a re-analysis of the deposited data

How the results depend on the processing

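The liver calls mostly did not hold. The Cyp8b1 call at TN was lost in 10 of its 12 alternatives, the Abca1 call at TN in 8 of 12 and the averaged Abca1 call in 9 of 19, while the Cyp27a1 call in BAT of KO was kept in 12 of 12. Counting also the changes that were never called, of 394 log2 changes under another scaling, filter, tool or sample set, 382 kept their direction and side of the threshold, 7 were gained and 4 lost as calls, and 1 changed sign (Abca1 in liver against eWAT, -0.015 without a filter). Of 1568 with 1 library left out, 1466 did so and 75 changed sign, all of changes that were not called. The causes were not tested. In fat, 8 of the genes had few counts, with SEs from 0.83 to 2.09, in libraries about as deep as those of liver.

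DESeq2 called more genes than edgeR. In liver it called 203 between genotypes at RT, 1111 at TN and 1433 averaged, 75 and 362 between temperatures in WT and KO, 329 averaged and 17 for the interaction. In fat it called 981 at RT and 20 at TN between genotypes in BAT, 1509 and 675 in eWAT, and 100 and 1154 between temperatures in eWAT of WT and KO. It called 1 member between temperatures in WT liver, 2 in KO liver, 3 averaged, 2 between genotypes averaged, and 1 in eWAT of KO.

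Without a filter, the genes called in liver were 25 between genotypes at RT, 10 and 77 between temperatures in WT and KO, and 87 averaged. In BAT there were 47 at RT and in eWAT of WT 1. On only the 8 libraries compared there were 8 and 13 between temperatures in WT and KO liver, and 0 in BAT between genotypes at RT, in eWAT between genotypes at TN and in eWAT between temperatures in KO. RLE scaling gave 0 genes in BAT between genotypes at RT. Between genotypes in TN liver, members called were 0 with RLE scaling, 1 without a filter and 1 on only the 8 libraries.

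With 1 library left out, the genes called in liver ran from 4 to 19 and from 178 to 497 between genotypes at RT and TN, and from 536 to 920 averaged. Between temperatures they ran from 2 to 23 in WT, from 0 to 153 in KO and from 17 to 102 averaged. In fat they ran from 0 to 1979 between genotypes in BAT at RT, from 287 to 830 and from 1 to 238 in eWAT at RT and TN, and from 0 to 13 and from 0 to 642 between temperatures in eWAT of WT and KO. Members called ran from 0 to 1 between genotypes in liver at TN and averaged, and from 0 to 1 between temperatures averaged.

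Between genotypes in liver at RT, leaving out 1 library gave log2 ranges of -0.311 to 0.019 for Cyp7b1, -0.085 to 0.638 for Nr0b2 and -0.112 to 0.068 for Slc10a1. At TN they were -1.428 to -1.125 for Cyp8b1, -0.841 to -0.506 for Abca1, -0.108 to 0.002 for Cyp27a1, -0.961 to 0.143 for Nr0b2, -0.281 to 0.105 for Abcb11 and -0.206 to 0.005 for Slc10a1. Averaged, they were -0.163 to 0.226 for Cyp7a1, -0.903 to -0.67 for Cyp8b1, -0.043 to 0.114 for Abcg5, -0.106 to 0.094 for Abcg8, -0.565 to -0.397 for Abca1, -0.34 to 0.212 for Nr0b2 and -0.043 to 0.151 for Abcb11. The averaged Cyp8b1 change was called without KO RT replicate 16 or 19 (edgeR adjusted p 0.0339 and 0.0453).

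Between temperatures in WT liver the ranges were -0.067 to 0.721 for Cyp7a1, -0.083 to 0.182 for Abcg5, -0.254 to 0.11 for Abcg8, -0.095 to 0.235 for Abca1, -0.068 to 0.667 for Nr0b2 and -0.15 to 0.054 for Slc10a1. In KO liver Nr0b2 ran from -0.926 to 0.16, and the interaction of Slc10a1 from -0.191 to 0.017. Averaged, they were -0.075 to 0.159 for Cyp8b1, -1.277 to -0.995 for Cyp7b1, -0.305 to 0.233 for Nr0b2 and -0.617 to -0.428 for Abcb11. In eWAT, Abca1 ran from -0.143 to 0.025 between genotypes at TN and Cyp27a1 from -0.15 to 0.081 between temperatures in KO. Correlations ran from 0.016 to 0.543 for Cyp7a1 and Cyp8b1, from -0.573 to -0.336 for Cyp7a1 and Nr0b2 (-0.533 as deviations) and from -0.099 to 0.261 for Cyp8b1 and Nr0b2.

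Within a tissue the groups share no replicate numbers, so no paired fit could be made there. Across tissues, 35 pairs of libraries with the same number had deviations correlated from -0.495 to 0.175 (median 0.026, 3 over 0.1). For 157 pairs with different numbers the correlations ran from -0.411 to 0.442 (median -0.007, 20 over 0.1). Different tissues of the same mouse need not deviate together, so these values cannot decide whether equal numbers mark the same mouse. With the animal number as a replicate block, 13875 genes were called between liver and BAT and 14409 between liver and eWAT, against 15029 and 16173 without it, and 10 and 9 members as before.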

Other observations

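In BAT the sterol efflux and LXR target list was compared between RT and TN. Of 12 genes tested, edgeR called 8 in WT mice (4 higher and 4 lower at TN, against 32.5% of all genes) and 5 in KO mice (3 higher and 2 lower, against 15.2%). The genes named here were chosen after their values were seen. Apoe, the apolipoprotein that macrophages secrete with cholesterol, rose by 1.59 (SE 0.30, edgeR adjusted p 0.000654) on the log2 scale in WT and by 2.23 (SE 0.31, edgeR adjusted p 0.000121) in KO. Abcg1, an exporter of cholesterol to HDL, rose by 1.18 (SE 0.25) in WT and 0.84 (SE 0.24) in KO. The lipogenic desaturase Scd1 fell by 1.36 (SE 0.21) in WT and 1.87 (SE 0.22) in KO, and Lpcat3 fell by 0.73 (SE 0.15) and 0.94 (SE 0.15). Macrophage markers rose in the same comparisons, 4 of 5 tested in each genotype, and their part was not tested.

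Of 15 further bile acid enzymes in BAT, 4 fell and 1 rose with warmth in WT and 3 fell in KO, shares near those of all genes called (32.5% and 15.2%).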
